A study of Drosophila melanogaster with 2 samples.

Results

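Of 3995 peaks in the authors' thresholded set for the CG18476-eGFP protein in fly embryos, 168 (4.21%) had their summit, the point of highest signal, inside the start of a gene. The nearest annotated transcription start site (TSS) of these peaks belonged to a protein-coding gene, the summit lay at or downstream of it in the gene's own direction by at most 500 bp, and no divergent pair of protein-coding genes shared the summit. Promoter peaks on the other side, upstream of a single TSS, numbered 973, and 751 lay between divergent pairs. The rule uses position alone, so the position is not a result. The measurement was chromatin immunoprecipitation with sequencing in 1 group of 2 biological replicates of whole Drosophila melanogaster embryos aged 0 to 24 h, of pooled sex. They came from a transgenic line that stably expresses CG18476 with eGFP, a green fluorescent protein, fused to its carboxyl end, and the antibody was against GFP. Chromatin was sheared to 200 to 800 bp, a length close to the distances described here. A mock precipitation or untagged line was not analysed here, and the sources used here do not give the promoter that drives the transgene or the state of the untagged gene. In whole embryos of this age span, binding in more cells and more binding per cell cannot be told apart.

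A gene is transcribed from its TSS into the first exon, which usually begins with a 5′ untranslated region (5′ UTR) before the start codon, and then often into a long first intron. In Drosophila, core promoter elements such as the TATA box, the initiator and downstream elements lie close around the TSS, RNA polymerase II often pauses a short way into the gene, and first introns often hold enhancers. Factors bound upstream of the TSS and factors bound within the transcribed start can therefore meet different sequence and different proteins.

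Summit sequences of members of high signal are shown because signal and base content are the main readouts here. They are 15 of the 20 highest, and those of GstE13, CG9344, Ufsp1, CG2811 and Trpm are not shown. Each is the dm6 reference sequence from RefSeq, 5′ to 3′ on the gene's strand, with capitals marking runs of at least 6 bases made only of A and T. Windows free of UTR sequence reach 50 bases to each side of the summit, and the others are 30 bases in all.
Pgant5, 2L:5093097-5093197, minus strand: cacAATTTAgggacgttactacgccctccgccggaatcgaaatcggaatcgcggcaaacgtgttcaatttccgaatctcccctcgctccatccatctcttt
CG31612, 2L:21794901-21795001, minus strand: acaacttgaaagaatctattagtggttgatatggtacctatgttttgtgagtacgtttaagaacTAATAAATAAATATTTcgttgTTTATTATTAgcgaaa
scramb2, 3L:3046395-3046495, minus strand: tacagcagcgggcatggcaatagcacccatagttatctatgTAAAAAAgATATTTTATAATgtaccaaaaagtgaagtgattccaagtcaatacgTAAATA
Ptp4E, X:4939938-4940038, plus strand: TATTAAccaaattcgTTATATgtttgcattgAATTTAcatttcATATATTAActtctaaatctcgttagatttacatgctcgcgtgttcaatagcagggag
rudhira, X:11818563-11818663, plus strand: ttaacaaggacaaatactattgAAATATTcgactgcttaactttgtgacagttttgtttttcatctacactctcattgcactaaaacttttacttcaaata
Ada2b, 3R:8240036-8240136, minus strand: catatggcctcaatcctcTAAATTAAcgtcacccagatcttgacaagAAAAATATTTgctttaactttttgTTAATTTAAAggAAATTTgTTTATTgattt
PNPase, 3R:31404651-31404680, minus strand: gtctcaagaaacgtacagggcTTTTATTgt
ph-p, X:2137936-2137965, minus strand: aacTTAATAAATcaactcaatacgtatgtc
CG9164, X:15383866-15383895, minus strand: tcgctggtgttcgttggacttccgcactct
CG9399, 3R:9574162-9574191, minus strand: tagtaccccagctgttgcggtgcTAAAATT
CG4497, 2L:7194516-7194545, minus strand: ctttgAATAATAcgTTTTATgtgaatggtt
CG9331, 2L:20823114-20823143, plus strand: AAAAATccaccctcgcacaaagcgctaata
CHES-1-like, X:7709110-7709139, minus strand: aggcTAAATATgtcaattgAATATATTAAA
CG14434, X:6852769-6852798, minus strand: gcccaaacttgcatcttcATTAAAATAcaa
CG12316, 3L:15136812-15136841, minus strand: gATAATTAcgtacggcgagctcatgaaaca
In the longer windows the G+C content was 51.5% for Pgant5 but 33.7% for scramb2, 30.7% for Ptp4E, 28.7% for rudhira, 27.7% for Ada2b and 26.7% for CG31612. Runs of A and T took 5.94% of the bases in Pgant5 and 39.6% in Ada2b.

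The strongest of these peaks spread over the whole 500 bp. Signals are the authors' values for the pooled reads, in the authors' units, and replicate values are those of the nearest replicate summit within 100 bp. The peak in the first intron of Pgant5, which encodes a GalNAc transferase that starts O-glycosylation, lay at 2L:5092930-5093447 with its summit 445 bp inside the gene and a signal of 1489, against 666 in replicate 1 and 822 in replicate 2. PNPase, the gene of mitochondrial polynucleotide phosphorylase, followed at 3R:31404485-31404844 with 891 (362 and 525), 75 bp downstream of the TSS in the 5′ UTR. The peak of ph-p, a gene of the Polycomb repressive complex, lay at X:2137683-2138107 with 579 (304 and 299), 421 bp downstream. The members' median was 92.1 (interquartile range 74.5 to 136), so these peaks stood far above most members, and they did so in both replicates. They were chosen by the pooled signal, which holds the reads of both replicates, so their height in each is not separate support. GstE13, a glutathione S-transferase gene, had 507 (223 and 283) at 68 bp, and CG9344 had 436 (202 and 234) at 178 bp in a coding exon. CG31612 had 353 (159 and 186) at 496 bp, the far end of the range.

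Further members among the 20 of highest signal lay at genes of many kinds. Ufsp1, which encodes a protease for the ubiquitin-like protein UFM1, had 329 (157 and 168) only 5 bp from the TSS. CG9164 had 341 (162 and 186) at 73 bp, CG9399 had 322 (157 and 166) at 35 bp, CG4497 had 281 (135 and 140) at 58 bp and CG9331 had 271 (143 and 118) at 301 bp. Most of the strong peaks gave similar values in both libraries, but scramb2, a phospholipid scramblase gene, had 252 from 76.3 in replicate 1 and 181 in replicate 2. Ptp4E, a receptor tyrosine phosphatase gene, had 252 (115.4 and 129.6) in its first intron at 407 bp, and rudhira had 241 (99.4 and 139) at 276 bp. Ada2b, which encodes an adaptor of histone acetyltransferase complexes, had 219 (117 and 101.3) in an intron at 429 bp. Trpm, a cation channel gene, had 218 (78.0 and 144) at 130 bp, CG2811 had 233 (114 and 117) at 10 bp, CG14434 had 226 (102 and 121) at 112 bp and CG12316 had 225 (128 and 95.9) at 108 bp. CHES-1-like, which encodes a forkhead factor, carried 2 members, 1 at 261 bp with a signal of 230 and 1 at 57 bp with 107, whose intervals overlap. Hr78, a nuclear receptor gene, was the other gene with 2, at 39 bp (108) and 58 bp (79.8), each measured from its own annotated TSS.

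**Figure D1:**
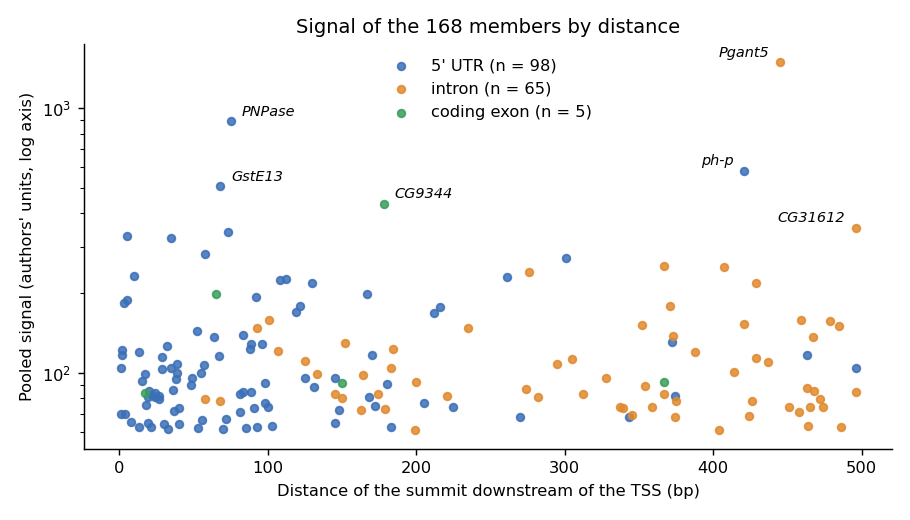
Pooled signal of the 168 members (authors' units, log axis) against the distance of the summit downstream of the TSS in bp, coloured by the annotated feature at the summit. Pgant5 at 1489 stands highest, far into its gene, and strong and weak members occur at all distances.

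Close to the TSS the members were frequent and their side was uncertain. The first 50 bp held 41 summits and the next 50 bp held 31, after which the number fell to 6 between 250 and 300 bp and came to 17 in the last 50 bp. The median distance was 132 bp. Upstream summits were distributed otherwise: 65 lay within 50 bp of the TSS and 170 between 150 and 200 bp, the highest bin. Intervals spanned the TSS itself in 103 members (61.3%), most of which, like most thresholded peaks, had the same width of 430 bp. Members differed little in signal along the distance, with a median of 90.1 within 100 bp, 95.4 from there to 200 bp, 85.2 from there to 350 bp and 100.6 beyond. Across the 168 members Spearman's rho of distance and signal was 0.06, as a description, since all come from the same 2 libraries.

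**Figure D2:**
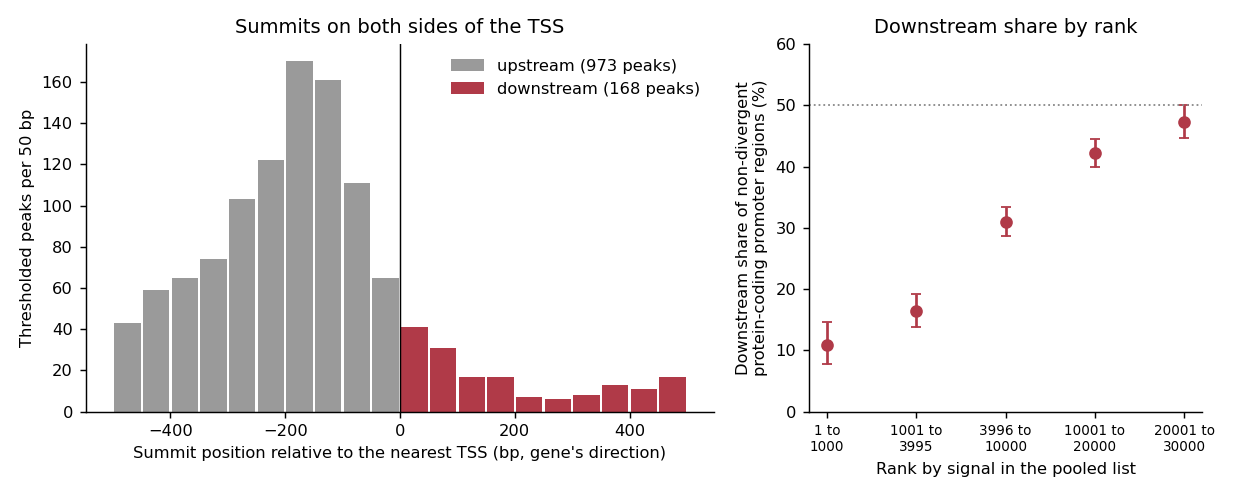
Left, number of thresholded non-divergent promoter peaks per 50 bp of summit position relative to the nearest TSS, upstream in grey (973) and downstream in red (168). Right, downstream share of non-divergent protein-coding promoter regions in percent by rank of signal in the pooled list, with exact binomial 95% intervals, from 10.9% in the top 1000 to 47.3% in the last 10000 regions.

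The label was set beside the summit calls of each replicate, which are not independent of it, since the pooled reads hold both replicates. Of the 168 members, 153 had a summit within 100 bp in the full list of both replicates, and in 133 of these (86.9%) both replicate summits also lay downstream of the TSS. In 18 they lay on different sides and in 2 both lay upstream. Since matched summits lay within 100 bp of the pooled one, members further than that from the TSS could not change side, and their counts say nothing of it. Within 50 bp, where a change was possible, 19 of 37 were downstream in both replicates. CG4497, a little further out, had a change, with its summit 58 bp downstream in the pooled list, 70 bp downstream in replicate 2 and 10 bp upstream in replicate 1. For summits close to the TSS the side was thus within the scatter of summit calls. The larger of the 2 shifts between pooled and replicate summits had a median of 25 bp.

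Just inside the TSS lay Ccz1 (signal 104) and RpL12 (70.0) at 1 bp, RpL24 (116) and Sqor (122) at 2 bp and eIF3c, a translation initiation factor gene (183), at 3 bp. On the other side of the TSS, RpL7A at 1 bp had 76.1, Cont and Sobp at 3 bp had 64.9 and 164, and CG8435 and CG14441 at 5 bp had 109 and 62.2. At the far limit CG31612 (353), cu (84.6) and CG15247 (105) at 496 bp were the last inside, and the protein-coding genes just outside were CG33725 at 506 bp (108), alpha-Est10 at 510 bp (63.2), CG5854 and CG4615 at 511 bp (100.98 and 112), qtc at 513 bp (70.8), and wech and rib at 515 bp (406 and 67.6).

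The signal differed between the libraries by a moderate factor. Over the 153 members in both lists, 111 were higher in replicate 2, and the replicate 2 signal was a median 1.28 times the replicate 1 signal (interquartile range 0.976 to 1.64). Upstream peaks had a median ratio of 1.24 and divergent peaks 1.16, so most of each class was higher in replicate 2. Spearman's rho of the 2 replicates' signals across peaks was 0.58 for members and 0.77 for the 913 upstream peaks, as a description. Trl, which encodes GAGA factor, had 54.99 in replicate 1 and 131 in replicate 2, while CG14715 went the other way with 87.3 and 36.2. The members' median was 43.7 in replicate 1 (160 members) and 54.9 in replicate 2 (161), against 49.5 and 59.8 for upstream peaks. In the pooled values it was 92.1 against 105 for upstream peaks (interquartile range 78.0 to 170) and 106 for divergent ones. The difference had the same sign in the pooled values and in each library, and the ranges overlapped widely.

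**Figure D3:**
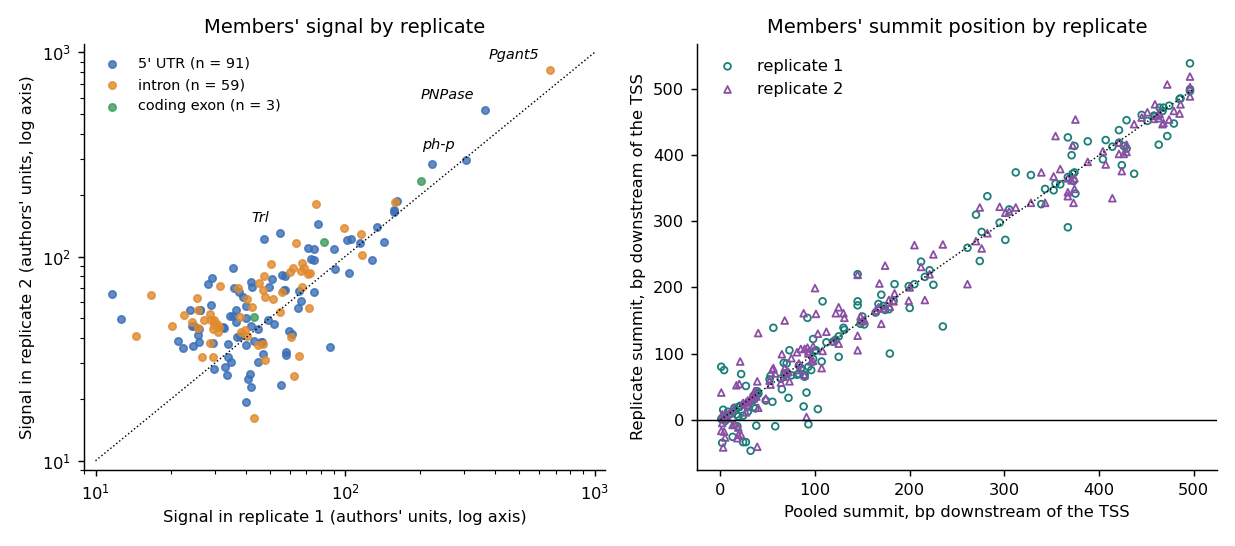
Left, signal of the 153 members in replicate 2 against replicate 1 (authors' units, both axes log), with the line of equal values; most points lie above it. Right, replicate summit position against pooled summit position in bp downstream of the TSS, with the line of equal positions and a line at the TSS; the points below the TSS line lie near it.

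Downstream regions were more common lower in the ranking. Of all 29999 regions of the pooled list on the 6 arms, 13.3% were in the thresholded set, and of the 2038 that met the same position rule 8.24% were (95% interval 7.09 to 9.52). The shares were 25.8% (24.4 to 27.3) of upstream regions, 39.9% (37.7 to 42.2) of regions in divergent pairs and 9.26% (8.88 to 9.66) of distal regions. Among non-divergent promoter regions, the downstream side held 10.9% (7.76 to 14.6) in the top 1000 of the pooled list, 16.4% (13.9 to 19.1) at ranks 1001 to 3995, 31.0% (28.7 to 33.4) at ranks 3996 to 10000, 42.2% (39.9 to 44.5) at ranks 10001 to 20000 and 47.3% (44.6 to 49.99) at ranks 20001 to 30000. The lowest band thus split nearly evenly between the sides, and the thresholded set, at 14.7% (12.7 to 16.9), did not. The same share was 16.4% among the 3995 strongest regions of replicate 1 and 14.04% among those of replicate 2.

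The annotated feature at the summit was not used by the rule. The 5′ UTR held 98 summits (58.3%, 95% interval 50.5 to 65.9), introns held 65 (38.7%, 31.3 to 46.5) and coding exons held 5 (2.98%, 0.973 to 6.81). When the members' distances were applied to all 19607 annotated protein-coding TSSs, the shares were 50.7% for 5′ UTR, 15.7% for introns and 32.2% for coding exons. The interval of the members' intron share lay above and that of their coding share below these values. The reference positions were not held to the rest of the rule, so they can lie nearer another TSS or in divergent pairs. Member TSSs also lay further from the start codon, at a median of 843 bp against 178 bp over all TSSs. The part of either in these shares was not tested. A limit of 250 bp leaves out the far summits, but it also narrows the divergent rule. Its 153 summits therefore include peaks that count as divergent pairs at 500 bp, not members alone. Introns held 17.0% of the 153 (11.4 to 23.9) against 8.51% at the same distances of all TSSs. Coding exons held 2.61% (0.717 to 6.56) against 23.4%. Weaker downstream regions of the pooled list, outside the thresholded set, were in coding exons in 24.5% of 1870 cases (22.6 to 26.5) and in introns in 26.1% (24.1 to 28.1), so their coding interval did not meet that of the members. These regions lay further from the TSS, at a median of 216 bp against 132 bp for members, and the part of this was not tested. In each library alone the coding share was 3.09% of the downstream regions among the 3995 strongest of replicate 1 and 3.75% of those of replicate 2. The thresholded set was selected from these same libraries, so this is not separate support. Among the 133 members whose summit was downstream in both replicates 3 were coding, 59 intronic and 71 in the 5′ UTR.

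The 5 coding summits were those of CG9344, Ibf2, an insulator binding factor gene (signal 199, 82.7 and 119, at 65 bp), CG44812 (92.0, 43.1 and 50.4, at 367 bp), qtc (91.2, at 150 bp) and Fatp1, a fatty acid transport protein gene (84.2, at 17 bp). For qtc no summit lay within 100 bp in replicate 1, and for Fatp1 none did in replicate 2. Introns took over with distance. Below 50 bp 40 of 41 summits lay in the 5′ UTR and 0 in an intron, and between 450 and 500 bp 15 of 17 lay in an intron. The median distance was 69 bp for summits in the 5′ UTR and 359 bp for those in introns. The 98 summits in the 5′ UTR, which by definition ends at the start codon, lay a median of 653.5 bp before it along the genome. Of the 65 intronic summits, 64 lay in the first intron, at a median of 146 bp into an intron of median length 1025 bp. Signal differed little between the features, with a median of 93.9 in the 5′ UTR and 88.9 in introns.

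**Figure D4:**
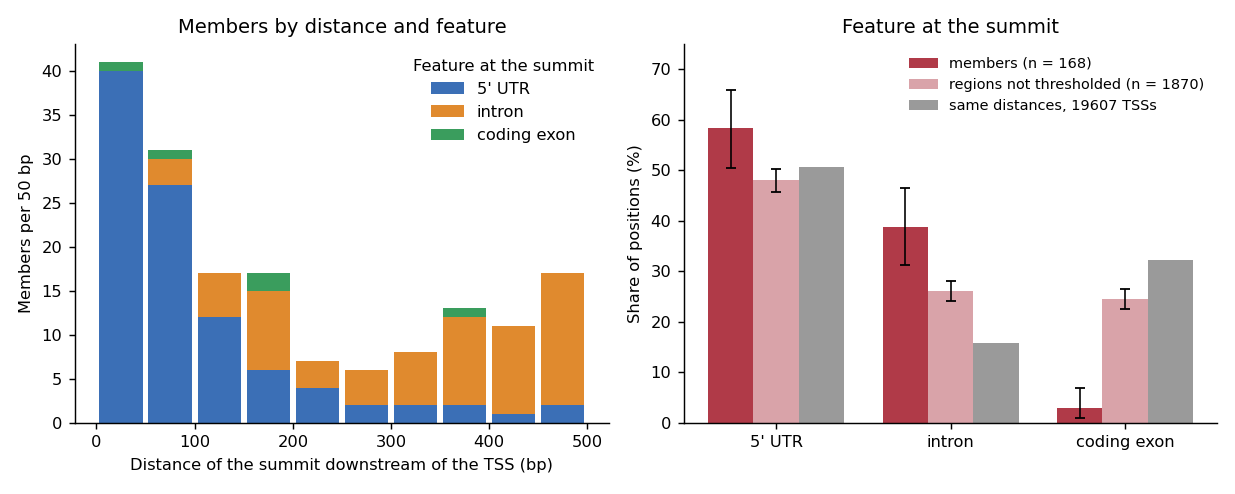
Left, members per 50 bp of distance downstream of the TSS, stacked by the annotated feature at the summit. Right, share of positions in percent in 5′ UTR, intron and coding exon for the 168 members and for 1870 downstream regions outside the thresholded set, with exact binomial 95% intervals, and for the members' distances at all 19607 protein-coding TSSs; coding exons hold 2.98%, 24.5% and 32.2%.

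The genes themselves were long and often had several annotated TSSs. Members and upstream peaks are described at their nearest TSS, and all genes at their 5′-most TSS, so all 19607 annotated protein-coding TSSs are given as a second reference. More than 1 TSS was annotated for the gene of 133 members (79.2%, 72.2 to 85.04), against 57.7% (54.5 to 60.8) of upstream peaks and 26.5% (25.8 to 27.3) of all 13945 protein-coding genes, or 47.7% of all TSSs. A further TSS of the same gene within 1000 bp downstream was annotated for 32.1% (25.2 to 39.8) of members, 19.5% (17.1 to 22.2) of upstream peaks, 16.6% of all genes and 16.4% of all TSSs. The rule takes the nearest of all annotated TSSs, so genes with many TSSs offer more positions, and the part of this in the shares was not tested. Median gene length was 5390 bp for members, 6635 bp for upstream peaks, 2166 bp for all genes and 2900 bp over all TSSs. The genome distance from TSS to start codon had a median of 843 bp for members, against 501 bp for upstream peaks, 138 bp for all genes and 178 bp over all TSSs. First introns had a median length of 661 bp, against 942 bp for upstream peaks, 110 bp for all genes and 188 bp over all TSSs.

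Some members had a further peak near them. Another thresholded summit lay within 1000 bp of 34 members (20.2%, 14.4 to 27.1), against 21.5% of upstream peaks, and in 17 members (10.1%, 6.01 to 15.7) it was upstream of the same TSS. For 1 of these 17, Hr78, the partner is the other Hr78 member, downstream of its own TSS. The member was the higher of the pair in 6 and the lower in 11. At Dp, which encodes the partner of E2F factors, the downstream peak was the higher, with 153 against 100.99 upstream. At brwl the upstream peak had 372 and the member 81.3, at CG11151 330 and 74.4, and at Aef1 175 and 95.7. These genes were chosen after their values were seen. Another protein-coding gene's TSS lay within 500 bp of 4 members, all on the same strand, and a noncoding gene's TSS of 10.

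Of 13945 protein-coding genes, 166 (1.19%) had a member, and 881 (6.32%) had an upstream non-divergent peak. Against that 1.19%, members lay at 5 of 86 cytoplasmic ribosomal protein genes (5.81%), all within 27 bp of the TSS: RpL24 (signal 116, 51.1 in replicate 1 and 77.4 in replicate 2), RpL30 (99.1, 57.9 and 34.2), RpL17 (79.8, 37.8 and 40.8), RpL35A (75.8, 32.8 and 44.6) and RpL12 (70.0, 12.6 and 49.7). Both replicate summits of RpL24 and of RpL35A lay upstream of the TSS, and those of RpL30, RpL17 and RpL12 lay downstream. In the same list 18 genes had an upstream peak and 22 were the nearest gene of a peak in a divergent pair, against 6.32% and 5.28% of all protein-coding genes. Of 73 mitochondrial ribosomal protein genes 0 had a member, 3 had an upstream peak and 10 a divergent one. Oxidative phosphorylation had 1 of 78, ND-B22 of complex I (61.1), and translation factors had 1 of 54, eIF3c. Proteasome (32 genes), aminoacyl-tRNA synthetase (31) and glycolysis (12) genes had 0, although 6 glycolysis genes had an upstream peak.

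Among genes of chromosome organisation, 3 of 16 insulator and architectural protein genes had a member, Ibf2, Trl (193 at 92 bp) and pita (90.7 at 180 bp), which encodes a zinc finger insulator protein. The list of Polycomb and trithorax genes had 1 of 28, ph-p, and a list of zinc finger genes had 2 of 25, Aef1 and pita. The former list is not complete: Trl, also a trithorax group gene, is counted only with the insulator genes. Cell cycle genes had 2 of 36, Dp (70.9 and 82.1) and dap, which encodes a cyclin-dependent kinase inhibitor (66.6, 25.8 and 41.1). Signalling genes had single members: kek1, an inhibitor of the EGF receptor (199, 90.5 and 109, at 167 bp), among 22 EGFR and FGFR genes, arr, the co-receptor of Wingless (61.8, 40.9 and 25.1, at 53 bp), among 25, and mam, the Notch coactivator Mastermind (81.2, 47.1 and 33.5, at 168 bp), among 25. The Hox gene Scr had 82.5 (36.7 and 54.5) at 22 bp, with the replicate summits on different sides of the TSS, among 8 Hox genes. Hsp83, which encodes Hsp90, had 179 (75.1 and 109) at 122 bp among 28 heat shock and chaperone genes, and Pgant5 was 1 of 43 glycosylation and sugar transport genes. Hedgehog (14), Decapentaplegic (15), segmentation (22), muscle (20), neuronal (18), cuticle protein (121) and chemoreceptor (180) genes had 0. Lists as short as most of these would often hold no member at the 1.19% of all genes, and they leave out members of like function. Nrx-1, the neurexin gene (170), and Fas2, a neural cell adhesion gene (91.9), are not in the neuronal list, and egh, a glycolipid glycosyltransferase gene (179), is not in the glycosylation list; they were named after their values were seen. Genes known by a CG number alone were 25.3% of member genes (18.9 to 32.6), against 43.7% of all protein-coding genes.

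The arms held 29 members on 2L, 34 on 2R, 32 on 3L, 37 on 3R, 35 on X and 1 on chromosome 4. As a share of protein-coding genes this was lowest on 3R (1.08%, 0.763 to 1.49) and, apart from the 80 genes of chromosome 4, highest on X, where 34 of 2196 genes had a member (1.55%, 1.07 to 2.16), and the intervals overlapped.

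The sequence at the summits was poor in G and C, less so than at upstream peaks. In the central 51 bp the mean G+C content was 37.7% ± 11.7 (SD over 168 members), against 44.1% ± 13.6 at 1000 bp further into the gene and 40.6% ± 13.2 at 1000 bp the other way. Upstream peaks had 32.9% ± 11.4 and divergent peaks 30.3% ± 11.05 at the summit. The same distances at all protein-coding TSSs, not held to the rest of the rule, had a mean of 44.8%, and downstream regions outside the thresholded set, which lay further from the TSS, 43.1%. The value followed the feature, with 33.6% ± 10.3 in introns, 39.9% ± 11.8 in the 5′ UTR and 47.8% ± 7.9 at the 5 coding summits. Of regions outside the set, the intronic had 35.7% and the coding 53.9%, so within these 2 features the members were lower by less than 1 SD. Intronic members were thus close to the upstream peaks in the mean. Single members varied widely, and the longer windows shown, all intronic, ran from 26.7% for CG31612 to 51.5% for Pgant5. Runs of at least 10 bases of A and T alone lay in the central 51 bp of 46 summits (27.4%) and of 27 flanks (16.1%), against 38.6% of upstream and 45.5% of divergent summits.

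**Figure D5:**
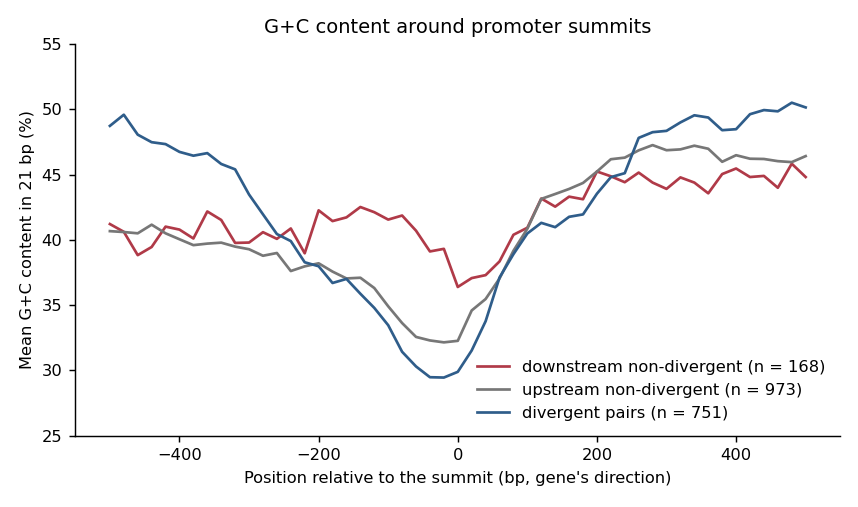
Mean G+C content in percent in 21-bp windows around the summit, in bp along the gene's direction, for 168 downstream, 973 upstream and 751 divergent promoter peaks. The downstream line dips least and lies above the other lines at the summit.

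None of 18 known motifs passed the threshold of 0.05 at the 168 summits, and 0 had an unadjusted p below it (exact McNemar test, two-sided, 50 bp to each side of the summit against the same length 1000 bp further into the gene, both strands searched, Benjamini-Hochberg adjustment). The replication-related element TATCGATA, the site of Dref, was in 0 of 168 member windows and 2 flanks, and in 21 of 973 upstream (2.16%) and 28 of 751 divergent windows (3.73%). At the same distances of promoters without any listed region it was in 0.546% of windows, so few would be found in 168. TATAAA, the TATA box, was in 21 windows against 22 flanks (12.5% and 13.1%, adjusted p = 1, exact McNemar test), and in 22.9% of upstream and 9.51% of unlisted windows. GAGAG, the site of GAGA factor, was in 21 against 29 (adjusted p = 1, exact McNemar test), and in 10.6% of upstream and 10.98% of unlisted windows. GGTCACAC, the core of Motif 1, was in 4 windows, those of CG14715, RpL30, uri and arr, and in 0 flanks (p = 0.125, adjusted p = 1, exact McNemar test), against 0.665% of unlisted windows. GGTATTTT, the core of Motif 6, was in 3 against 1. When only 4 windows differ between summit and flank, 4 against 0 is the most one-sided split, with p = 0.125 (exact McNemar test). Motifs as rare as this, among them TATCGATA and GGTATTTT, could thus not pass, and the test says nothing of them. The adjustment over 18 motifs asks for a still smaller p. Motifs with somewhat more differing windows, such as the E-box CACGTG (3 against 3) and the CA repeat CACACACA (2 against 5), could therefore not pass alone either. A motif match is a description of these letters only.

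A further 10 sequences of 6 bases were chosen by the smallest p for excess at the other 3827 summits against their flanks. Those made only of A and T were left out of the choice. At the members 0 of the 10 passed. TTGAAA was in 32 against 18 windows and TTCAAA in 30 against 16, each with p = 0.0336 and adjusted p = 0.168 (exact McNemar test). Around the TSSs of the member genes, TCAGT, the core of the initiator, lay within 6 bp of the TSS in 7.78% of 167 (4.21 to 12.9), against 15.4% (13.2 to 17.9) at upstream peaks and 9.77% of all TSSs. The TATA box at 40 to 20 bp upstream was in 3.59% of 167 (1.33 to 7.66), against 3.70% at upstream peaks and 6.13% of all TSSs.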

How the data were processed

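Chromatin immunoprecipitation was sequenced in 2 samples of 1 group. Per the README texts that accompany the deposited lists, the authors called regions in each sample and in the pooled reads, with a control, and then selected a set by irreproducible discovery rate (IDR). No source used here names the aligner, the caller, the versions or the IDR threshold. The signal of each region is the authors' deposited value, with scaling to depth not stated. The −log10 q value in the deposited lists was 2.31 to 3.71 at the members and was not used further. The lists hold no read counts, and the depth is unknown, so counting error of reads enters no value.

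The dm6 thresholded set, the pooled list and the list of each replicate (30000 regions each, 1 pooled region off the 6 arms) were used, with 1-based positions. TSSs of all transcripts came from Ensembl release 115 without transposable elements, sequence from RefSeq dm6. At 3 members the nearest TSS is shared by 2 genes, and the lower gene ID was kept. The dm3 lists were not used. Replicate values are those of the nearest replicate summit within 100 bp. Features were taken in the order coding exon, 5′ UTR, 3′ UTR, intron over all transcripts. A pooled region counted as thresholded when its arm, start, end and summit were the same as those of a thresholded peak. Members were matched to the strongest regions of a replicate by an overlap of at least 0.5 of both lengths. Intervals are exact binomial (Clopper-Pearson, 95%) and cover the counting of peaks or genes only, not differences between embryos. With 1 group, no test between conditions was possible. The list symbols corkscrew, calypso and weckle matched no gene. Motif and class procedures were tested on simulated data. The alternatives tried were other positions, limits, TSS sets, features, overlaps, windows, flanks, stronger peaks only and each replicate alone. Tools were Python 3.11.15 with Matplotlib 3.10.9, NumPy 2.4.6, pandas 2.3.3 and SciPy 1.17.1.

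The members, gene lists and tests were chosen with earlier results of these data known. Genes are named by rule: the 20 members of highest signal, the 5 highest per feature, up to 2 per gene list, and those at the distance limits. RpL17, RpL35A, RpL12, CG14715, uri, the motif of arr, Hr78 and the members with an upstream partner were named after their values were seen.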

Additional observations from a re-analysis of the deposited data

How the results depend on the processing

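Alternatives numbered 31 chosen at the outset and 17 added after seeing the data. Of these, 33 left the value near the one reported and 15 moved it. Only the differences in signal and in G+C content have a direction that could reverse, and 0 of their settings reversed it. Counts, shares and the number of motifs that passed have none. Near was a loose label for counts: 147 peaks, with 1 TSS per gene, counted as near 168. The peak midpoint lies close to the summit in most members, so settings that use it could hardly change a value. With a limit of 1000 bp 305 peaks met the rule, the downstream share was 22.9%, and with 250 bp 17.0% of summits were in introns, 11.1% of downstream pooled regions were in the thresholded set and the median signal difference to upstream peaks was -10.7 instead of -13.2. Both limits also change the divergent rule. The stronger peaks alone, the upper part by signal, gave 75 genes and a downstream share of 12.3%, and 1 TSS per gene gave 17.0%. The median difference was -16.6 without peaks that span the TSS and from -5.87 to -4.85 with 1 replicate left out, where the signals themselves are lower. Members matched among the strongest regions of both replicates were 61.9%, and 73.8% with an overlap of 1 bp, 48.2% with 0.8 of both lengths and 88.7% with all regions. The G+C difference was -6.41 percentage points, and -2.93 with the flank on the other side. In windows of 100 bases to each side GGTATTTT (9 against 1) had an unadjusted p of 0.0215 and an adjusted p of 0.193, and GCCAT, the core of the Pho site (42 against 65), 0.0106 and 0.190 (exact McNemar test). GCCAT also had an unadjusted p of 0.0300 without replicate 1 (20 against 37, adjusted p = 0.541, exact McNemar test). No motif passed in any setting tried, and the rare ones could not. No paired analysis was possible because there is only 1 group. Annotated TSSs may not be those used in embryos, which was not tested.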

Other observations

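Of the 168 members 60.1% (95% interval 52.3 to 67.6) lay on minus-strand genes. Upstream peaks did so in 52.7% (49.5 to 55.9), downstream regions of the pooled list in 49.2% (47.0 to 51.4) and all protein-coding genes in 50.2%. This split was noticed in the data and was not tested.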
